A study of Mus musculus with 6 samples.

Results

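A set of 150 probes was described whose signal was on in some mouse cerebella and off in others, out of 371 probes that were within the detection limits given next and of 45281 probes on the array. The members were selected on their own measured values, without use of the genotype. On an Illumina bead array each probe carries a detection p, which sets its signal against negative control beads, so that a small p means a signal above background. A probe was kept if its detection p was under 0.01 on 2 or more of the 6 arrays and over 0.05 on 2 or more. The 6 log2 processed intensities of each kept probe were sorted, and the largest step between neighbours that left at least 2 arrays on each side was taken as its gap. The 150 probes with the largest gaps are the members. The arrays above the gap are called its high side, the others its low side, and the division between them is its split. On and off are said of 1 probe, and other probes of the gene may read otherwise. Gaps and splits are therefore given as descriptions, with no test.

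The study compared the cerebellum of male wild-type mice and male Sp4 hypomorphs (genotype Sp4neo-/-) at postnatal day 21, with 3 animals and 3 arrays in each group. All 6 animals were of the strain Black Swiss X CD1, a cross between outbred stocks. RNA was extracted with Trizol, cleaned on RNeasy columns with DNase, and hybridised as biotin-labelled complementary RNA, 1 array per animal. The design describes 3 pairs of littermates, but the labels number the animals of each genotype from 1 to 3 without saying that a number marks a litter, so littermates could not be identified. A hypomorphic allele lowers the amount or function of a protein without removing it, and the labels name no promoter or Cre that would limit it to a cell type.

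Sp4 is a zinc-finger transcription factor that is abundant in neurons and binds GC-rich elements near gene starts, such as the GC box. A bead-array probe is a short oligonucleotide that reads 1 stretch of a transcript. Its signal falls when the transcript is scarce, when an isoform lacks that stretch, or when the animal's own sequence differs from the probe there. Mice of outbred stocks are not genetically alike, so littermates can inherit different alleles at many places in the genome. In a whole tissue, fewer cells of a type and less RNA per cell cannot be told apart.

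The gaps ran from 3.15 down to 0.235 on the log2 scale of processed intensity, with a median of 0.33, against a median of 0.21 over the 371 probes. A gap of at least 1 was found for 13 members and of at least 0.5 for 45. Just inside the limit were Cacybp, a partner of a ubiquitin ligase, Azi2, an adaptor of innate immune signalling, and Zfp296, a zinc-finger protein, with gaps of 0.24, 0.24 and 0.23. Just outside were 2 probes without a gene name and Top3b, a topoisomerase, with gaps of 0.23 each, so the limit of 150 does not mark a break in the values. The processed intensities have a floor near 7 on this scale, and a step that starts at the floor understates the fold. A clean pattern, with every high array under 0.01 and every low array over 0.05 in detection p, was found for 67 members, of which 37 were among the 50 largest gaps and 30 among the other 100. One gene symbol was available for 115 members, which belong to 111 genes, and 35 members carried none. All 150 were among the 17351 probes with a detection p under 0.01 on 2 or more arrays, which are called the tested probes below. Wild type 1, 2 and 3 were on the high side of 50, 100 and 93 members, and hypomorph 1, 2 and 3 of 50, 98 and 64. The probes above background at a detection p under 0.05 numbered 18746, 19806 and 19088 on wild type 1 to 3 and 18656, 20135 and 19655 on hypomorph 1 to 3. Both counts were lowest on the arrays numbered 1 and highest on those numbered 2, but hypomorph 3 had more probes above background than wild type 3 and was on the high side of fewer members. The part of these differences in the members was not tested.

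The largest gap belonged to Pdrg1, a prefoldin-like protein first found as a gene regulated by p53 and DNA damage, which lies on chromosome 2. Its log2 processed intensity was 6.99 on wild type 1 and 7.15 on wild type 2, and 10.29, 10.36, 10.41 and 10.39 on wild type 3 and hypomorph 1, 2 and 3. The probe was thus at background in 2 wild-type animals and at a nearly constant bright level in the other 4 animals. Mkks, a chaperonin-like protein that is mutated in a human ciliopathy, lies 16.1 Mb from Pdrg1 on the same chromosome and split the same arrays. It stood at 7.16 and 7.04 on wild type 1 and 2, and at 8.65, 8.43, 8.57 and 8.61 on the others. In all, 6 members had this split. Besides Pdrg1 and Mkks they were Zfp35, Cnnm1 and Nup50, each on another chromosome, and a probe without a gene name. The split was thus not limited to genes on the chromosome of Pdrg1, and the part of nearness in it was not tested. A second Mkks probe was bright on every array, at 11.21, 10.72, 11.10, 11.24, 11.11 and 11.02 in the order wild type 1 to 3 and hypomorph 1 to 3, and its arrays overlapped. The low reading was thus limited to 1 of the 2 Mkks probes that were tested. In the limma fit described below, leaving out wild type 3 brought Pdrg1 and Mkks past the threshold between genotypes. That result rests on the left-out animal, the wild-type one with the high reading of both.

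The starts of both genes are shown because both probes switched together. RefSeq's sequence from 250 bases before to 50 bases after each gene's start in assembly GRCm38.p6 is printed 5′ to 3′, with the GC box (GGGCGG, or CCGCCC when it lies on the other strand) in capitals. The Pdrg1 window holds 1 match and the Mkks window 2.
Pdrg1, chr2:153015334-153015633, minus strand: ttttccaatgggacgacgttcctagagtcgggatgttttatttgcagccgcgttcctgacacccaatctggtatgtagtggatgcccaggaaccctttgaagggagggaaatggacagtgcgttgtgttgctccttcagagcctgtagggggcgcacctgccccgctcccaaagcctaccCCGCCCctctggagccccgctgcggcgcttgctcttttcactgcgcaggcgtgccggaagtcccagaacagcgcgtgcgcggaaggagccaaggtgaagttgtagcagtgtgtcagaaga
Mkks, chr2:136891357-136891656, minus strand: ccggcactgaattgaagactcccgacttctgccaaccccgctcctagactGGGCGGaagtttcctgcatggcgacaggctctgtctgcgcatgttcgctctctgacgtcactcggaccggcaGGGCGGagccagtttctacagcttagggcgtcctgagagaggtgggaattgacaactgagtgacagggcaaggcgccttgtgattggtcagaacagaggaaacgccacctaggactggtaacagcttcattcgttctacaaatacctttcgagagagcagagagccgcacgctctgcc
A match shows only that these letters are in the window. Probe sequences were not available here, so whether any probe of the array reads the window was not checked.

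Other genes beside Pdrg1 were read for the same arrays. These and the other neighbours named next were picked after their values were seen. Srxn1, the sulfiredoxin that repairs oxidised peroxiredoxins, lies 0.898 Mb from Pdrg1. One of its probes stood at 9.56 and 9.27 on wild type 1 and 2 and at 10.58, 10.57, 10.23 and 10.55 on wild type 3 and hypomorph 1 to 3. Its other probe stood at 8.55 and 8.29 against 9.07, 9.17, 9.07 and 9.06. Tbc1d20, a GTPase-activating protein for Rab proteins, lies 0.695 Mb away and stood at 8.62 and 8.78 against 9.27, 9.44, 10.23 and 9.42. On each of these probes wild type 1 and 2 were the 2 lowest arrays, as they were for Pdrg1, although none of them fell to background. Not all neighbours did this. Of 47 tested probes of other genes within 1 Mb of Pdrg1, 5 had every high-side array above every low-side array, and 4 the reverse. Of all tested probes, 9.93% separated these arrays in 1 direction or the other, and 0.599% with a difference of at least 0.5.

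The second largest gap belonged to Zfp330, a zinc-finger protein on chromosome 8. Its probe read 7.34 on wild type 3 and 7.32 on hypomorph 1, and 10.52, 11.21, 11.54 and 10.41 on wild type 1, wild type 2, hypomorph 2 and hypomorph 3. One animal of each genotype was therefore at background. The other tested Zfp330 probe was bright on all 6 arrays, between 10.07 and 10.45, and did not separate them. Scoc, a coiled-coil protein of autophagy that lies 0.66 Mb away, was lowest on the same 2 arrays. It stood at 9.82 and 9.52 there and at 11.13, 11.52, 11.29 and 11.06 on the other 4. Of 20 tested probes of other genes within 1 Mb of Zfp330, only 1 separated these arrays in its direction and 2 in the opposite one. Of all tested probes, 9.3% separated them in either direction.

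Lrrc57, a leucine-rich repeat protein on chromosome 2, was on in wild type 1 (9.21) and hypomorph 1 (9.03) and off in the other animals, at 6.89, 7.15, 7.11 and 6.89. Ccndbp1, a helix-loop-helix protein that binds cyclin D, lies 0.399 Mb away and was highest on the same 2 arrays, at 10.31 and 10.36, while the others lay between 9.07 and 9.49. Tmem87a, a membrane protein 0.2 Mb away, had 2 probes that separated these arrays in opposite directions. One was higher on wild type 1 and hypomorph 1 by 0.52 and the other was lower there by 0.63 on average. Both probes of 1 gene thus separated the same animals, in reverse. Such separation was common for these 2 arrays. It was found for 24.7% of all tested probes in either direction, and with a difference of at least 0.5 for 2.97%. Of 56 tested probes of other genes within 1 Mb of Lrrc57, 8 separated them in its direction and 11 in the opposite one.

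Stx3, a syntaxin of membrane fusion on chromosome 19, read 8.88, 8.82 and 9.0 on wild type 3, hypomorph 1 and hypomorph 2, and 6.92, 6.96 and 7.09 on wild type 1, wild type 2 and hypomorph 3. None of its 3 other tested probes separated these arrays. Osbp, an oxysterol-binding protein 0.144 Mb away, was above 9.2 on the 3 arrays where Stx3 was on (9.54, 9.64 and 9.22) and lower on the other 3 (8.81, 8.17 and 8.02). Of 17 tested probes of other genes within 1 Mb of Stx3, 1 separated these arrays in its direction and 1 in the opposite one. The share over all tested probes was 5.8% in either direction. Tesk1, a kinase that phosphorylates cofilin, lies on chromosome 4 and was off in wild type 1 (7.35) and hypomorph 3 (7.30), with 8.81, 8.99, 9.93 and 9.52 in the others. Car9, a carbonic anhydrase 0.059 Mb away, was lowest on wild type 1 (7.87), with wild type 3 and hypomorph 3 next at 8.39 each.

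Ttc27, a tetratricopeptide repeat protein on chromosome 17, was on in wild type 3 (9.62), hypomorph 1 (8.54) and hypomorph 3 (8.71), and between 7.09 and 7.14 in the other animals. Cfl1 encodes cofilin, the actin-severing protein that Tesk1 phosphorylates, and lies on chromosome 19. Its member probe was off on wild type 2 (6.99) and hypomorph 3 (6.94) and stood at 8.18, 8.50, 8.48 and 8.75 elsewhere. Mus81, a DNA endonuclease whose gene lies 0.00207 Mb from Cfl1, was lowest on the same 2 arrays (9.15 and 8.98) and between 9.52 and 9.83 on the rest. More neighbours ran the other way: of 95 tested probes of other genes within 1 Mb, 9 separated these arrays in the direction of Cfl1 and 17 in the opposite one. Of all tested probes, 15.1% separated them in either direction. Prkag2, a regulatory subunit of the AMP-activated kinase on chromosome 5, was off in hypomorph 2 (7.32) and hypomorph 3 (7.35) and on in the 3 wild-type animals and hypomorph 1 (8.50, 9.37, 8.59 and 8.61).

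Zfp35 and Zfp24 are zinc-finger genes that are direct neighbours on chromosome 18, 0.00435 Mb apart with 0 genes listed between them. Zfp35 was off in wild type 1 (7.15) and wild type 2 (7.07) and stood at 8.35, 9.11, 8.34 and 9.23 on wild type 3 and hypomorph 1 to 3. The member probe of Zfp24 was off in hypomorph 1 (6.99) and hypomorph 3 (7.03), where Zfp35 was highest, and stood at 8.13, 7.99, 7.69 and 7.62 on the other 4 arrays. A second Zfp24 probe was above background on all 6 arrays and repeated the split, with 9.77, 9.81, 9.17 and 9.45 on wild type 1 to 3 and hypomorph 2, against 8.16 and 8.12 on hypomorph 1 and 3. The 2 arrays lowest for Zfp35 were thus the 2 highest for Zfp24, and the 2 highest for Zfp35 the 2 lowest for Zfp24, with wild type 3 and hypomorph 2 between them in both genes.

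The chemokine Ccl21, a ligand of the receptor Ccr7 that guides lymphocytes and dendritic cells, was represented by 4 members. Ccl21a stood at 9.91, 8.54, 8.80 and 8.66 on wild type 1 to 3 and hypomorph 3, and at 7.18 and 7.22 on hypomorph 1 and 2. The 2 Ccl21c probes and the probe named LOC100041504 split the same arrays, with gaps of 1.11, 0.80 and 0.90. These are near-identical copies in 1 region of chromosome 4, and the gene table places Ccl21c and LOC100041504 on scaffolds, so which copy each probe reads is uncertain. The 4 members are therefore not separate observations.

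Tested probes of other genes within 1 Mb were then read over the arrays of each placed member's split. A probe separates them when all arrays of 1 side lie above all arrays of the other, in either direction. Around 38 members among the 50 largest gaps there were 863 such probes, of which 179 separated the arrays (20.7%), while 14.6% of all tested probes did so over the same splits. Of the 179, 85 ran in the direction of the member and 94 in the opposite one. The neighbours named above mostly ran in the member's direction. Opposite ones include Hint2, a hydrolase 0.206 Mb from Tesk1 with a difference of -0.63, and Mrpl35, a protein of the mitochondrial ribosome 0.00731 Mb from Immt with -0.66. A separation with a difference of at least 0.5 in log2 between the sides was found for 28 of them (3.24%), against 1.21% of all tested probes. Around 74 of the other 100 members, 370 of 1959 probes separated the arrays (18.9%), beside 18% of all tested probes. A difference of at least 0.5 was found there for 30 (1.53%), beside 1.86%. The 28 probes lay around 15 genes, among them the near-identical Serpina1b beside Serpina1d. Probes in 1 region and in 1 animal share their source, so these shares are descriptions.

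Across the 150 members 36 different splits were found of the 50 that are possible with at least 2 arrays on each side. The high side held 2 arrays in 56 members, 3 in 33 and 4 in 61. Among the 50 largest gaps, 27 had 4 high arrays, which is a probe that was low in only 2 animals. Among the other 100, 46 had only 2 high arrays. The most frequent split had both arrays numbered 2 high and the other 4 low, in 25 members. Of these, 1 was among the 50 largest gaps and 24 were among the other 100. The next had both arrays numbered 1 low, in 17 members, of which 5 were among the 50 largest gaps. In all, 57 members had the arrays of 1 number alone on 1 side, 10 of the 50 largest gaps and 47 of the other 100, as had 123 of the 371 probes within the limits. The largest gaps thus fell on many combinations of animals, while the smaller ones gathered on the arrays numbered 2 and 1. Those are the arrays with the most and the fewest probes above background, as given above. These splits were common beyond the members. Both arrays numbered 2 were high in 16.7% of members and 13.5% of the 371 probes, and both numbered 1 low in 11.3% and 11.6%. Of all tested probes, 28.6% separated the arrays numbered 2 from the rest in either direction. The share was 24.7% for number 1 and 9.75% for number 3. Some cell type markers moved with the array numbers too, and those given first were picked after their values were seen. The summed processed intensity of the 17 tested probes of granule cell markers was highest on wild type 2 (119303.5) and hypomorph 2 (110614.7) and lowest on wild type 1 (81217.5) and hypomorph 1 (86996.1), with wild type 3 and hypomorph 3 at 96784.4 and 104570.6. That of the 12 tested probes of Bergmann glia and astrocyte markers ran the other way, at 91977.5 and 90726.6 on the arrays numbered 2, 118614.9 and 113640.7 on those numbered 1 and 107169.2 and 101759.2 on those numbered 3. Other lists were mixed. Purkinje cell marker sums were lowest on the arrays numbered 2 (73459.0 and 69746.2). Oligodendrocyte marker sums were lowest on hypomorph 3 (134961.3), and endothelial and mural ones on hypomorph 1 (9425.8). The part of the differences in probe counts and marker sums, or of a shared litter, in the splits was not tested.

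For the split with both arrays numbered 2 high, the largest gap was 0.71, on a probe without a gene name. Trim11, a ubiquitin ligase on chromosome 11, led the split with both arrays numbered 1 low, at 7.17 and 7.03 there and 8.17, 7.97, 8.06 and 8.06 on wild type 2, wild type 3, hypomorph 2 and hypomorph 3. Immt, a protein that shapes mitochondrial cristae, was high on wild type 2 (8.74), hypomorph 2 (9.05) and hypomorph 3 (8.44), and between 7.31 and 7.62 elsewhere. Its other tested probe was bright on every array and did not separate them. Spata7, a protein of the photoreceptor cilium, was highest on wild type 2 (8.68) and wild type 3 (8.26) and lowest on hypomorph 2 (7.15) and hypomorph 3 (7.22). Actr6, an actin-related protein of a chromatin remodelling complex, led the split with both arrays numbered 2 low, at 7.41 and 7.36 against 7.77, 8.02, 7.90 and 7.74. These steps were small beside those of Pdrg1 or Zfp330. The low arrays of Trim11 and Actr6 were all at background, while some low arrays of Immt and Spata7 were above it.

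The genotype was the split of 7 members (4.67%), and of 13 of the 371 probes within the limits (3.5%). It was the split of 3 of the 50 largest gaps and of 4 of the other 100 members. The hypomorph side was high for Pcdh9, Plekhf2 and Cdk5rap1, and the wild-type side for Comp, Il17re, a probe without a gene name and Sp4 itself. Hypomorph minus wild type was fitted for all 17351 tested probes with limma on log2 intensities after the neqc background correction, and p-values were adjusted over all of them by the Benjamini-Hochberg method. No probe of the whole table had an adjusted p under 0.05 (0%), and so 0 of the 150 members had one. The lowest adjusted p was 0.0776 over all probes and 0.101 among members. At an unadjusted p under 0.05 stood 947 probes (5.46%) and 32 members, 10 higher and 22 lower in the hypomorph. Groups that did not overlap were found for 1856 tested probes (10.7%) and for 15 members. The gaps chose the members, and nothing is read from these counts. The median log2 difference was -0.09 over the members and 0.002 over all tested probes.

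Sp4, the targeted gene, lies on chromosome 12 and was a member near the end of the ranking, with a gap of 0.24. Its member probe stood at 7.70, 7.49 and 7.82 on wild type 1 to 3 and at 7.19, 7.23 and 7.25 on hypomorph 1 to 3. All 3 hypomorph arrays were at background and all 3 wild-type arrays above it, and the groups did not overlap. The hypomorph mean was at least 1.5-fold lower. Such a bound sets the group above background against the dimmest detected signal of each array in the other group, and it leaves out the spread between animals. A further Sp4 probe stood at 8.46, 7.92 and 8.18 in wild type and at 7.57, 7.50 and 7.69 in the hypomorph, again without overlap. The fitted log2 difference of the further probe was -1.30 (SE 0.26, limma adjusted p = 0.313), which did not pass. No source used here says whether either probe lies in the altered part of the gene. Rapgef5, an exchange factor for the GTPase Rap, lies 0.472 Mb from Sp4 and followed the genotype in the opposite direction, at 8.37, 7.51 and 7.52 in wild type and 8.60, 8.39 and 8.45 in the hypomorph. The groups did not overlap, but wild type 1 lay beside the hypomorph arrays.

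The start of Sp4 is shown because Sp4 binds GC boxes and was the gene altered. The window of 300 bases holds 5 GC boxes, in capitals as before, and that of Cdk5rap1, a member that was higher in the hypomorph, holds 1.
Sp4, chr12:118301391-118301690, minus strand: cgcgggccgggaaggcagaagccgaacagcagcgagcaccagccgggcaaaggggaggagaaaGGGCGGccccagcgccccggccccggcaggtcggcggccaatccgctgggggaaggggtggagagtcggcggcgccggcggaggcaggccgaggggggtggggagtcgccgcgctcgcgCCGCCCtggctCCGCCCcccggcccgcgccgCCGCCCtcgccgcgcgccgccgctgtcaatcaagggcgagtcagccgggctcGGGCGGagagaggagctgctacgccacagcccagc
Cdk5rap1, chr2:154372670-154372969, minus strand: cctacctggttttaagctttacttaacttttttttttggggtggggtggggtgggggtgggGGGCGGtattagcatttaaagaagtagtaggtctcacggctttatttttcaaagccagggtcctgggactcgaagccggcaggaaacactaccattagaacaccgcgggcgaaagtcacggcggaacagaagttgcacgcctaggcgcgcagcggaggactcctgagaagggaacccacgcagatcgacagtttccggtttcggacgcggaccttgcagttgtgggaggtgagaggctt

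Cdk5rap1, which modifies mitochondrial transfer RNA, lies on chromosome 2 near Pdrg1. The printed windows of Pdrg1 and Cdk5rap1 start at positions 153015334 and 154372670. Its member probe stood at 7.31, 7.42 and 7.56 in wild type and 8.18, 8.04 and 8.13 in the hypomorph. Both further probes separated the genotypes too. The brighter of them stood at 9.07, 9.0 and 9.09 in wild type and 9.85, 9.89 and 9.81 in the hypomorph, with a fitted log2 difference of 0.98 (SE 0.12, limma adjusted p = 0.101). The other differed by 1.16 (SE 0.21, limma adjusted p = 0.276), with 8.65, 8.62 and 9.14 in wild type and 9.77, 9.68 and 9.68 in the hypomorph. All 3 Cdk5rap1 probes thus gave 3 higher hypomorph arrays, and none passed the threshold. Map1lc3a, a core protein of autophagosomes 0.903 Mb away, was also higher in all 3 hypomorph animals, at 9.30, 9.25 and 9.28 against 8.54, 8.69 and 8.97. Of 27 tested probes of other genes within 1 Mb of Cdk5rap1, 2 separated the genotypes in its direction and 1 in the opposite one, beside 10.7% of all tested probes in either direction. Wild type 3 was the highest wild-type array for Map1lc3a and all 3 Cdk5rap1 probes, though by little on the brighter further probe. That animal was on the high side of Pdrg1, and the part of the Pdrg1 split in these values was not tested.

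Pcdh9, a protocadherin of cell adhesion on chromosome 14, had the widest gap of the members that followed the genotype. It stood at 7.35, 7.37 and 7.50 in wild type and 8.73, 8.51 and 8.11 in the hypomorph. Of its 3 further probes, 1 separated the genotypes, with a fitted log2 difference of 0.70 (SE 0.14, limma adjusted p = 0.313). The brightest stayed between 11.98 and 12.26 on all arrays and differed by -0.05 (SE 0.13, limma adjusted p = 0.999). Probes of Pcdh9 therefore gave different answers for the same animals.

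Plekhf2, an endosomal protein on chromosome 4, had a member probe that stood at 7.40, 7.37 and 7.28 in wild type, all at background, and at 8.30, 7.88 and 7.97 in the hypomorph. The hypomorph mean of that probe was at least 2.62-fold higher. Its further probe was above background on all 6 arrays, at 9.35, 9.11 and 9.38 in wild type and 10.10, 9.71 and 9.72 in the hypomorph. It also separated the genotypes and differed by 0.67 (SE 0.18, limma adjusted p = 0.618), which is less than the bound of the member probe. Comp, a cartilage matrix protein on chromosome 8, stood at 7.82, 7.61 and 7.71 in wild type and at 7.16, 6.99 and 7.04, at background, in the hypomorph, at least 1.62-fold lower. Il17re, the receptor of the cytokine IL-17C, lies on chromosome 6 and stood at 7.88, 7.87 and 7.85 in wild type and 7.07, 7.51 and 7.35 in the hypomorph. Its further probe differed by -1.21 (SE 0.19, limma adjusted p = 0.211), with 8.21, 8.20 and 7.97 against 7.52, 7.68 and 7.56. The member without a gene name was at least 1.99-fold lower in the hypomorph. In each of these probes all 3 animals of 1 genotype lay above all 3 of the other, and none passed the threshold.

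A further tested probe of the same gene was available for 59 members, 83 probes in all. It is another oligonucleotide on the same RNA, so it bears on whether the split holds beyond 1 stretch of the transcript. Of the 83, 38 (45.8%) separated the same arrays in the same direction, while 8.26% of all tested probes did so over the same splits. Of the 75 that are not members themselves, 30 did so (40.0%), 13 of 23 for the 50 largest gaps and 17 of 52 for the other members. Only 3 separated the arrays in the opposite direction, for Tanc1, Rnf40 and Azi2. For 28 members no further probe repeated the split. The largest gaps were among these: Zfp330, Stx3, Mkks, Slc15a2, Immt and Ddhd1, while Pdrg1, Lrrc57, Tesk1 and Ttc27 had no further tested probe. Several of those further probes were bright and steady on all arrays, as for Zfp330, Mkks and Immt.

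Other genes repeated their split on further probes. Adamts18, a secreted metalloprotease on chromosome 8, was low on both arrays numbered 1, at 7.35 and 7.34, and stood at 8.78, 8.0, 8.13 and 7.94 on wild type 2, wild type 3, hypomorph 2 and hypomorph 3. All 4 of its further probes separated the same arrays, with differences of 0.82, 0.43, 0.60 and 0.58. Cnnm1, a membrane protein with a cystathionine beta-synthase domain, was low on wild type 1 and 2, at 7.18 and 7.21, and between 7.72 and 8.22 on the others. Its further probe stood at 9.10 and 9.65 there and between 9.97 and 10.56 on the others. Ly6d, a membrane-anchored protein of the Ly6 family, was highest on wild type 2 and 3, at 8.05 and 8.25, and its further probe repeated this at 8.36 and 8.65. Unc13c, a presynaptic protein of granule cells, was low on both arrays numbered 1, and 1 of its 2 further probes repeated this by a difference of 0.27.

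Igfbpl1, a secreted growth factor-binding protein, had 2 member probes that split the same arrays, with both arrays numbered 1 low. Spata7 had 2 member probes as well. Both probes read wild type 2 and 3 highest and hypomorph 2 and 3 lowest, but the gap fell at different places, so their splits differ. Serpina1b and Ahsg, described below, repeated their splits on 2 and 1 further probes. Plscr1, a phospholipid scramblase, was high on wild type 1, wild type 2 and hypomorph 3, and its further probe separated these by 0.23.

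By place, chromosome 4 held 15 of the 111 member genes (13.5%), beside 6.32% of the 9884 genes of tested probes, and chromosome 19 held 8 (7.21%), beside 3.56%. The chromosome 4 genes include the Ccl21 copies. No member gene lay on the X chromosome, which held 3.0% of the genes of tested probes. These shares rest on few genes per chromosome and were not tested. Within 1 Mb of each other lay 11 pairs of member genes, and 2 of these pairs had the same split. Ube2cbp, which binds a ubiquitin-conjugating enzyme, and Me1, the cytosolic malic enzyme, lie 0.116 Mb apart on chromosome 9. Me1 stood at 8.61, 8.13 and 8.40 on wild type 1, wild type 2 and hypomorph 3 and between 7.07 and 7.28 on the others. Ube2cbp stood at 7.90, 7.89 and 7.89 on the same 3 arrays and between 7.12 and 7.22 on the others. Plscr1, 5.55 Mb from Me1, split the same arrays, at 7.98, 7.86 and 7.92 against 7.18, 7.26 and 7.36. These 3 genes are the only members with exactly these 3 arrays on the high side, and all 3 lie on chromosome 9. Stx3 and Npas4, both on chromosome 19, divided the same animals with the sides reversed. The other pair was Serpina1b and Serpina1d, near-identical copies whose probes may read each other's transcripts.

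The remaining 9 pairs within 1 Mb had unlike splits. Besides Zfp35 with Zfp24, they were Smtnl2 with Itgae, Tnrc6b with Tob2, Npas4 with Cfl1, Trub1 with Atrnl1, Ccl21a with Tesk1, Comp with the predicted gene Gm3336, Zfp330 with Tbc1d9, and Cspg5 with Scap. Trub1, a pseudouridine synthase, and Atrnl1, an attractin-like membrane protein, lie 0.12 Mb apart and differ by 1 array. Atrnl1 was off on both arrays numbered 3, at 7.01 and 7.13, and Trub1 was lowest there too, at 7.41 and 7.23, with hypomorph 2 next at 7.64. Scap, the escort protein of sterol regulators, and Cspg5, a brain proteoglycan, lie 0.0707 Mb apart, and differ more. Cspg5 was highest on wild type 2 (8.62), as was Scap together with hypomorph 2 (7.96 each), but Scap was low on hypomorph 3 (7.43), where Cspg5 was on (7.88).

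Several members encode proteins that the liver makes. Ahsg, or fetuin-A, stood at 8.22 on wild type 3 and 9.04 on hypomorph 2, and between 7.0 and 7.27 on the other arrays. Its second member probe gave 8.03 and 8.63 on these arrays and at most 7.29 elsewhere. Apoa2, an apolipoprotein of high-density lipoprotein, followed with 8.37 and 8.86 there and at most 7.51 elsewhere. The member probes of Hp (haptoglobin), Hpx (hemopexin) and Mat1a, the liver's methionine adenosyltransferase, also split off wild type 3 and hypomorph 2. In all, 8 members had this split. Among them were Srek1ip1 and Hsd17b12, which are not in the list of liver genes given below. The 2 high animals were of different genotype and number. Other probes of Hp and Hpx did not repeat this split. Another Hpx probe was above background only on hypomorph 2 (7.80), with wild type 3 at 7.12. Another Hp probe was above background only on wild type 2 (7.54). Over all probes above background on at least 1 array, wild type 3 and hypomorph 2 were the 2 highest for 4.95%.

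The member probes of Serpina1b and Serpina1d, which encode alpha-1 antitrypsin, had another split and were off in hypomorph 1 and 3. That of Serpina1b stood at 8.46, 7.97, 8.52 and 8.84 on wild type 1 to 3 and hypomorph 2, and at 7.41 and 7.23 on hypomorph 1 and 3. The 2 further Serpina1b probes were above background on hypomorph 3, at 7.67 and 7.54. A list of 22 liver genes, drawn up after these values were seen, has 34 probes, of which 18 were above background at a detection p under 0.05 on at least 1 array. Wild type 3 and hypomorph 2 were the 2 highest arrays on 15 of the 18, and on 7 of the 10 that are not members. The list was made to match the pattern, so these counts are no support for it. The number of these probes above background was 8, 8 and 15 on wild type 1 to 3 and 2, 17 and 4 on hypomorph 1 to 3. Alb, which encodes albumin, was not above background on any array, at 6.87 on wild type 3 and 7.06 on hypomorph 2. Fabp1 and the Mup2 probes were likewise not above background on any array. The part of other tissue in these values was not tested.

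The label of the tissue was checked with 12 lists of cell type markers. Markers of granule cells were above background on 16 to 18 of 22 probes per array, Purkinje cell markers on 11 or 12 of 19, and those of neighbouring brain regions on 3 to 5 of 26. Only 1 marker of these lists was a member: S100a8, a protein of neutrophils, which was off on wild type 3 (7.45) and hypomorph 1 (7.42) and stood at 7.95, 8.20, 8.39 and 8.24 on the others. From 11 lists of gene functions, 5 members came up. Ifit3, an interferon-induced antiviral protein, was highest on wild type 3 (8.60) and hypomorph 3 (8.58) and lowest on wild type 1 (7.42) and wild type 2 (7.37). Rsad2, another interferon-induced gene, was high on wild type 1, wild type 3 and hypomorph 2, at 8.04, 7.99 and 8.21, so these 2 interferon genes did not share a split. Npas4, an activity-dependent transcription factor of neurons, was high on wild type 3, hypomorph 1 and hypomorph 2, at 7.69, 7.73 and 7.70, and between 7.09 and 7.42 on the others. The other 2 were Pcdh9 and Apoa2. No member came from the lists of the major histocompatibility complex (22 tested probes), glutathione transferases (38), imprinted genes (42), Y-linked genes (2), heat shock proteins (25), the respiratory chain (46) or Golgi enzymes of glycan building (38). The members are 150 of 17351 tested probes, so lists of this size would hold few or none in any case. Nothing is read from these counts.

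The GC box was looked for on either strand in the promoter windows of RefSeq for GRCm38.p6. A window was listed for 82 of the 111 member genes, and 50 of these (61.0%) held at least 1 match. The share was 70.2% over the genes of tested probes with a window and 38.2% over all 27025 genes of the table. Of the 4 genes with a window among the members that followed the genotype, 2 held a match, Sp4 and Cdk5rap1, while Pcdh9 and Il17re held none. The absence of these letters in the window says nothing about binding of Sp4 elsewhere.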

How the data were processed

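The authors deposited, per the file headers, a non-normalized intensity with its detection p-value per probe and per array, and a second table of processed intensity on a linear scale. The submitters' processing notes name BeadStudio, without a version or settings, and no genome build was found in the sources used here. Within each array the processed values kept the rank order of the non-normalized ones (rank correlation 1) and lay a median of 140.6 to 142.8 above them, and their medians agree at 161.3 to 161.5. That raised floor compresses log2 steps that start at background. The precision rests on 3 arrays per group, and p-values measure the spread between these animals.

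Gaps were taken on log2 of the processed values. For the genotype fit, the non-normalized values were background-corrected with the detection p-values, quantile-normalized and put on the log2 scale with an offset of 16 (neqc, limma 3.58.1, R 4.3.3), and hypomorph minus wild type was tested with lmFit and eBayes over 17351 probes, without a block. Both computations were tested on simulated data. Quantile normalization hides a shift of most transcripts in 1 direction. Of 45281 probes, 34885 had 1 gene symbol in the platform annotation, 18 several and 10378 none. Chromosomes and distances come from the gene table of GRCm38.p6. Since the arrays name no build, coordinates are printed only for the promoter windows shown.

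Genes were named by rule: named members that follow the genotype, the 12 largest named gaps, the leading member of each split with 3 or more members, up to 15 members whose further probe repeats the split, neighbouring pairs, 3 probes on each side of the limit, Sp4 and Fchsd1 if members (Fchsd1 is none), and members in a gene list. Other names were chosen after their values were seen. The members, the 23 lists and the tests were chosen with earlier results of these data known, and the liver list and the reading of neighbouring probes were added after values were seen.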

Additional observations from a re-analysis of the deposited data

How the results depend on the processing

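Of the 150 members, 142 remained when the rule was applied to neqc values, 136 with median-scaled non-normalized values and 117 when a detection p under 0.05 counted as on, with 6, 7 and 6 following the genotype. With no detection bound only 36 remained, since bright probes then compete, and 14 of the 150 followed the genotype. The 75 largest gaps kept 75, with 5 following the genotype, and the 300 largest held 11 that did. Among clean on/off members, an alternative added after the data were seen, 2 followed it. With 1 array left out, 25 to 30 members separated the genotypes on the arrays that remained, as fewer arrays have to be in order. The count of 0 probes past the adjusted threshold became 8 with the authors' processed values, 1 without background correction, 3 with an offset of 50, 6 with a variance trend and robust moderation and 31 with array weights, 5 of them members (Cdk5rap1, Comp, Plekhf2, Sp4 and a probe without a gene name). It stayed at 0 without a filter and with a filter on 3 or more arrays. With 1 array left out the count ran from 0 to 2, the 2 being Pdrg1 and Mkks without wild type replicate 3, and 1 without hypomorph replicate 2. Beyond these constructions the cause was not tested. Members with a further probe that repeats the split numbered 31, or 15 when the further probe had to be above background on all 6 arrays. For the 7 probes that followed the genotype, 93 fitted values under the alternatives kept direction and side of the threshold and 5 came past it, all with array weights.

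Deviations of same-numbered arrays from their group means correlated by 0.480, 0.420 and 0.065 for numbers 1, 2 and 3, so the numbers were not taken as pairs. Each array correlated best with the array of its own number, which is a hint from the data and not from the design. With the replicate number as a block 2 probes passed in place of 0, and 0 of them were members, while probes with an unadjusted p under 0.05 rose from 947 to 1693. Signals near background limit every small gap, and 94 members had no low array above background.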

Other observations

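Of the 150 members, 35 carried no gene symbol. The widest gap among them was on a probe that was off in wild type 1 (7.14) and wild type 2 (6.96) and stood at 9.65, 8.34, 9.22 and 9.94 on wild type 3 and hypomorph 1 to 3, the split of Pdrg1 and Mkks. Its place in the genome is not known from the annotation used here.

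Next to members lay probes that were bright and yet differed widely between animals. Psmd8, a subunit of the proteasome's regulatory particle beside Nccrp1 on chromosome 7, stood at 8.69 on wild type 2 and between 11.56 and 12.51 on the other 5 arrays. A single array cannot form a side under the rule, so this pattern was outside the members. Ifit2, 0.00658 Mb from Ifit3, was lowest on the 2 arrays where Ifit3 was highest, at 7.71 on wild type 3 and 7.87 on hypomorph 3, and highest on wild type 1 (9.18), where Ifit3 was at background.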
